A study of Mus musculus with 18 samples.

Results

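Plasminogen activators, their receptor and inhibitor, and a group of secreted cytokines and growth factors were followed in mouse tail-tip fibroblasts after delivery of guide RNAs against Lmna, the gene of the A-type lamins. The genes were Plat, Plau, Plaur, Serpine2, Il6, Lif, Hgf, Vegfa and Tnfrsf11b, which belong to the secretory programme described for senescent cells. They were taken by name from the table of expression values, with 1 transcript for each gene, the one with the highest mean level. They are 9 of the 24445 gene symbols in that table, and all 9 were present and passed the filter on low values (at least 1 FPKM in at least 2 libraries), 8 of them with at least 1 FPKM in all 18 libraries and Il6 in 13. FPKM scales reads to transcript length and library size, so levels can be compared between genes.

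The study had 3 genotypes, 3 treatments and 2 mice per genotype, which gave 9 groups of 2 libraries. The first genotype was Pro/Pro;Cas9/+, homozygous for the Pro allele and carrying a Cas9 transgene (homozygous Cas9 cells). The second was Pro/+; +/+, with 1 Pro allele and no Cas9 (heterozygous cells), and the third was +/+;Cas9/+, with Cas9 and no Pro allele (wild-type Cas9 cells). The labels do not spell out the Pro allele or say what drives Cas9. Cells of each mouse received gLmna-2, gLmna-1 or gMock, a guide without a match in the genome. Heterozygous cells carry no Cas9, so the guides there have no nuclease. All mice were 2 months old and all cultures were at passage 5. The lentivirus also carried mCherry, polybrene was at 4 µg/ml, over 80% of cells were mCherry-positive, and cells were neither selected nor sorted. One heterozygous mouse carries a double number in the labels, which do not say whether it is 1 animal or a pool. Replicate 1 and replicate 2 are the 2 mice of a genotype, and each pair of values below gives replicate 1 and then replicate 2.

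Plasminogen activators are secreted serine proteases that turn plasminogen into plasmin, which degrades fibrin and matrix proteins. Tissue-type activator is encoded by Plat and urokinase by Plau, Plaur encodes the receptor that holds urokinase on the cell surface, and Serpine2 encodes protease nexin-1, a serpin that inhibits urokinase, tissue-type activator and thrombin. Il6 and Lif are cytokines that signal through the shared receptor gp130 and STAT3. Hgf encodes the ligand of the receptor MET, made by fibroblasts and acting mainly on epithelium, and Vegfa encodes the main growth factor of blood vessels. Tnfrsf11b encodes osteoprotegerin, a soluble decoy receptor that binds RANK ligand and so restrains osteoclasts.

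In homozygous Cas9 cells Tnfrsf11b and Hgf fell with gLmna-2 relative to gLmna-1. Tnfrsf11b averaged 34.3 ± 7.27 FPKM with gLmna-2 and 93.0 ± 44.02 FPKM with gLmna-1, and Hgf 4.35 ± 2.29 FPKM with gLmna-2 and 9.76 ± 0.92 FPKM with gLmna-1 (SD, n = 2 each). With gMock, Tnfrsf11b averaged 50.5 ± 6.27 FPKM and Hgf 4.54 ± 3.01 FPKM (SD, n = 2 each), so for Hgf gLmna-2 lay near gMock and gLmna-1 above it. The call was kept in 6 of 11 alternative settings for Tnfrsf11b and in 4 of 11 for Hgf. Only 1 Tnfrsf11b transcript was annotated, so the longest-transcript setting, among its 6, left its values unchanged. Tnfrsf11b and Hgf were the 2 members called among 135 tests of members, 9 in each of 15 comparisons. In their own comparison 9.95% of all tested genes were called. No member was called for the guides against gMock in any genotype, or between genotypes. For Serpine2, Plau and Tnfrsf11b the level was higher in every homozygous Cas9 library than in every wild-type Cas9 library, as for 3.09% of tested genes, a comparison of 2 mice against 2.

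Depth, recovered from the steps of the values, was 22424389 to 42622120 reads per library. The targeted gene, Lmna, was at 217 to 310.0 FPKM with the guides and 246 to 369.8 FPKM with gMock in homozygous Cas9 cells. In wild-type Cas9 cells Lmna was at 272 to 333 FPKM with the guides and 317 to 381.4 FPKM with gMock. Its total level lay below gMock in 5 of 6 mice with gLmna-2 and in 4 of 6 mice with gLmna-1, and passed no test. A total level does not measure editing. The 10 fibroblast markers summed to between 7077 and 9586 FPKM in every library, and each reached 1 FPKM, but 4 of the 10 were called between gLmna-2 and gLmna-1 in homozygous Cas9 cells. Prrx1 (1.30) and Thy1 (1.08) were higher, and Col3a1 (-1.37) and Col1a1 (-0.80) lower. The deviations of a homozygous Cas9 mouse from its group means correlated at 0.778 between gLmna-2 and gMock, at -0.019 between gLmna-2 and gLmna-1 and at 0.128 between gLmna-1 and gMock, across all tested genes. In heterozygous cells these values were 0.734, 0.472 and 0.567, and in wild-type Cas9 cells 0.59, 0.365 and 0.176. Values without each gLmna-1 or gLmna-2 library of homozygous Cas9 cells follow for the called members and, as counts with examples, for the pathway and marker genes.

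**Figure D1:**
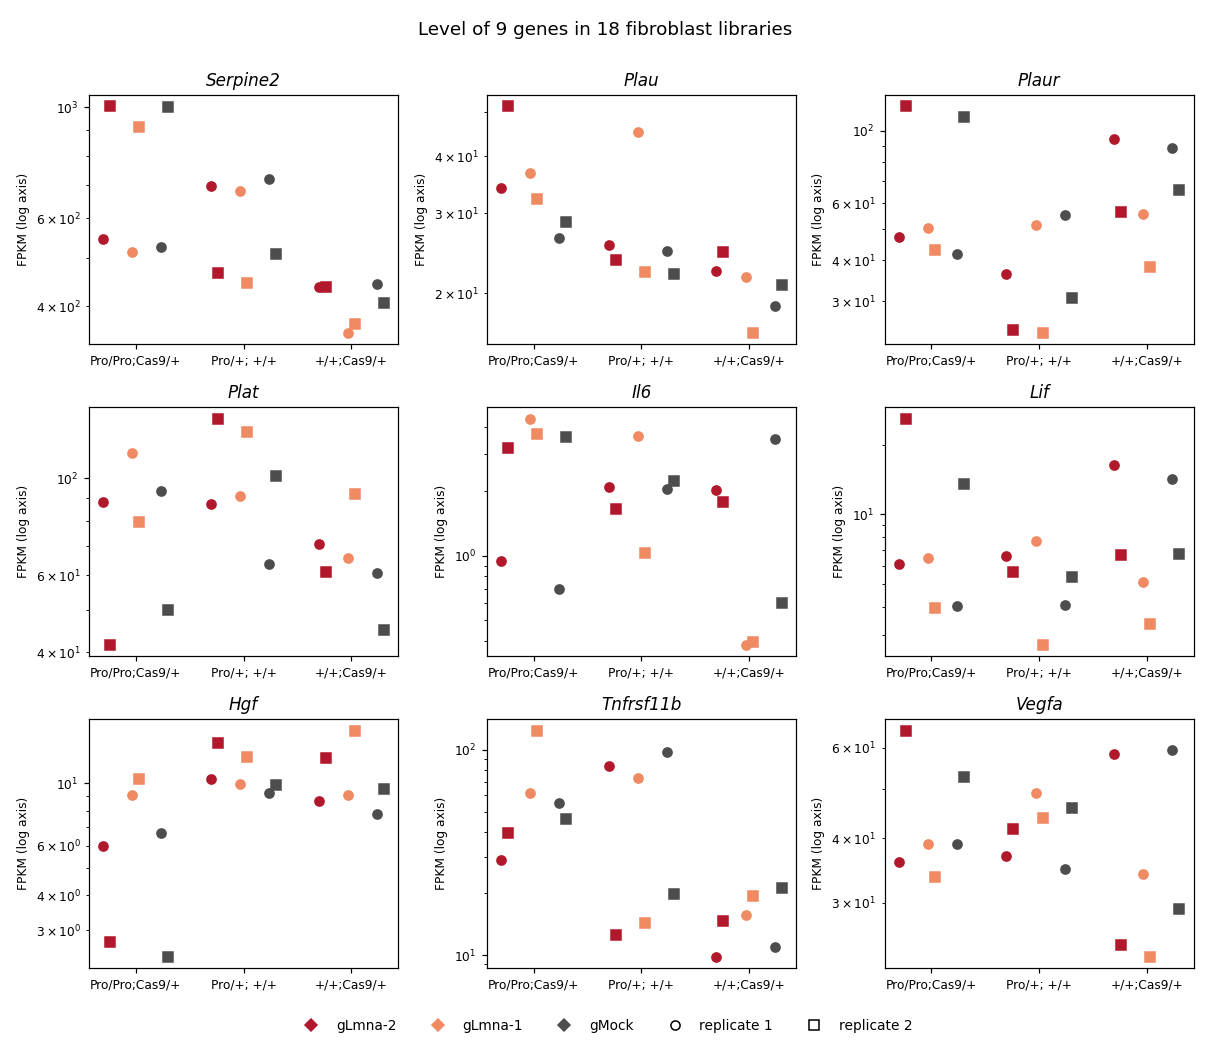
Level of each of the 9 genes in all 18 libraries, in FPKM on a log axis, by genotype, with gLmna-2, gLmna-1 and gMock side by side and the 2 mice of a genotype as circles (replicate 1) and squares (replicate 2). The 2 mice keep their order across treatments for Serpine2 in homozygous Cas9 and heterozygous cells, while Lif and Plaur of the second homozygous Cas9 mouse drop with gLmna-1 alone.

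Promoter windows, from 250 bases before to 50 bases after the annotated start, were available from RefSeq (GRCm38.p6, the build mm10) for 6 of the 9 genes. Plau, Plat and Tnfrsf11b had none. Windows are shown for Plaur and Lif, whose levels moved together across libraries, for Il6, which like them holds AP-1 letters, and for the start of the Hgf transcript that was used. Capitals mark letters that match an AP-1 motif (TGANTCA), a hypoxia element (ACGTG or GCGTG), a STAT motif (TTCNNNGAA) or an NF-kB motif on either strand.
Plaur promoter, chr7:24462233-24462532, + strand: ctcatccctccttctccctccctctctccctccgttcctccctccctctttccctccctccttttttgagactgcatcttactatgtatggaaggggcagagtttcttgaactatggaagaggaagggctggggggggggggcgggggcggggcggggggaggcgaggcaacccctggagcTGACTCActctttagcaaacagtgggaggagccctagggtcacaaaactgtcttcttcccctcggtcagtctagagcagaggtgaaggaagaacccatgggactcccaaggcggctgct
Lif promoter, chr11:4257318-4257617, + strand: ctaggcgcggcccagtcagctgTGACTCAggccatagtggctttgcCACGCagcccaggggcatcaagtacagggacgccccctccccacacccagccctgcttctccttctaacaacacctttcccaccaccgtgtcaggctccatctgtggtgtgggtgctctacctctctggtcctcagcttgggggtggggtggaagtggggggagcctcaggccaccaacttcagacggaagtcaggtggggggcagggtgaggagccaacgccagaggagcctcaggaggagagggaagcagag
Il6 promoter, chr5:30012864-30013163, + strand: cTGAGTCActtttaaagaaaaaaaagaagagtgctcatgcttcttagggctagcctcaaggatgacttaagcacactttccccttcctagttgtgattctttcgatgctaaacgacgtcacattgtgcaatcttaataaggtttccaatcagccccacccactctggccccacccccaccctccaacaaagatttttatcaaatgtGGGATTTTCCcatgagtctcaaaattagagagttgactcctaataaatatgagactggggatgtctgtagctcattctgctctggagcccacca
Hgf promoter, chr5:16553651-16553950, + strand: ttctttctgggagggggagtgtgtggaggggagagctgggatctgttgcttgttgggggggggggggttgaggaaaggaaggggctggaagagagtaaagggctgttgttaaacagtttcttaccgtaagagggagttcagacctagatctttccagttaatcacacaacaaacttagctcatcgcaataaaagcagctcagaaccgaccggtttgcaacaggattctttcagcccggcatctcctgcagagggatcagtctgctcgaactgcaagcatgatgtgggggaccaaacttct
The AP-1 letters were in the windows of Plaur at -69, of Lif at -228 and of Il6 at -249 relative to the start. They occurred in 7.81% of all 32851 windows of this length, and in no window of Vegfa, Hgf or Serpine2. With each mouse's mean removed, Pearson's r with Lif and Plaur was 0.868 and 0.82 for Vegfa. For Il6 it was 0.458 and 0.358. The Il6 window also held the NF-kB letters at -44, which occurred in 4.79% of windows. The hypoxia letters, at -204 in Lif, occurred in 43.8% of windows. They were also in a Vegfa window and in another Hgf window, and the STAT letters, in 8.30% of all windows, were in none of these genes. A match describes letters and shows no binding. The first annotated part of the Lif transcript and that of Il6 had 0 reads in all 18 libraries, which allows up to 0.0186% of the 16116 Lif reads and 0.261% of the 1150 Il6 reads, counting error only. The windows of these 2 genes are thus those of annotated starts without reads. Another annotated Lif transcript, starting at chr11:4266796, had 160 reads in its first part, with reads in every library. No window was available at that start.

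Plat (NM_008872, chr8:22757722-22782848, + strand, mm10), the tissue-type activator, was the most abundant of the activators, between 41.6 and 136.7 FPKM with a median of 83.4 FPKM. Plat had 88.4 and 41.6 FPKM with gLmna-2, 114 and 79.5 FPKM with gLmna-1, and 93.6 and 50.1 FPKM with gMock in homozygous Cas9 cells. Plat values in heterozygous cells were 87.2 and 137 FPKM with gLmna-2, 91.2 and 128 FPKM with gLmna-1, and 63.7 and 101 FPKM with gMock. Plat measured 70.8 and 61.1 FPKM with gLmna-2, 65.8 and 92.0 FPKM with gLmna-1, and 60.6 and 44.9 FPKM with gMock in wild-type Cas9 cells. The lowest library was gLmna-2 of the second homozygous Cas9 mouse and the highest gLmna-2 of the second heterozygous mouse. Within each mouse the gLmna-1 library was above the gMock library in all 6 mice, heterozygous mice without Cas9 included, which held for 2.05% of tested genes. The difference between gLmna-1 and gMock alone was tested in homozygous Cas9 cells, where it did not pass (limma adjusted p = 0.244). In homozygous Cas9 cells gLmna-2 minus gLmna-1 was -0.64 on the log2 scale (SE 0.19, limma adjusted p = 0.0677). It was lower in both mice, as for 19.7% of tested genes, and in all 14 transcript parts with at least 20 reads. Across the 9 groups the means ran from 112 FPKM (heterozygous cells with gLmna-2) to 52.7 FPKM (wild-type Cas9 cells with gMock), and all 8 neighbouring groups in that order overlapped.

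Plau (NM_008873, chr14:20836662-20843388, + strand), urokinase, was lower, between 16.4 and 51.6 FPKM with a median of 24.7 FPKM. Plau had 34.2 and 51.6 FPKM with gLmna-2, 36.9 and 32.2 FPKM with gLmna-1, and 26.5 and 28.7 FPKM with gMock in homozygous Cas9 cells. Plau values in heterozygous cells were 25.5 and 23.7 FPKM with gLmna-2, 45.3 and 22.3 FPKM with gLmna-1, and 24.8 and 22.1 FPKM with gMock. Plau measured 22.4 and 24.6 FPKM with gLmna-2, 21.7 and 16.4 FPKM with gLmna-1, and 18.7 and 20.9 FPKM with gMock in wild-type Cas9 cells. All 6 homozygous Cas9 libraries, from 26.5 to 51.6 FPKM, lay above all 6 wild-type Cas9 libraries, from 16.4 to 24.6 FPKM. Within mice the gLmna-2 library was above gMock in 6 of 6 mice, which held for 5.03% of tested genes. These included both heterozygous mice, with differences of 0.04 and 0.095 on the log2 scale. In the homozygous Cas9 mice they were 0.355 and 0.83 (gLmna-2 against gMock 0.59, SE 0.24, limma adjusted p = 0.437).

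Plaur (NM_011113, chr7:24462483-24475968, + strand), the urokinase receptor, ranged from 24.0 to 118.8 FPKM with a median of 50.8 FPKM. Plaur had 47.3 and 119 FPKM with gLmna-2, 50.4 and 43.1 FPKM with gLmna-1, and 41.7 and 110.03 FPKM with gMock in homozygous Cas9 cells. Plaur values in heterozygous cells were 36.3 and 24.5 FPKM with gLmna-2, 51.3 and 24.0 FPKM with gLmna-1, and 55.0 and 30.6 FPKM with gMock. Plaur measured 94.3 and 56.3 FPKM with gLmna-2, 55.5 and 38.1 FPKM with gLmna-1, and 88.6 and 66.0 FPKM with gMock in wild-type Cas9 cells. The gLmna-1 library was the lowest of its mouse in the second homozygous Cas9 mouse, in both wild-type Cas9 mice and, narrowly, in the second heterozygous mouse, but the highest in the first homozygous Cas9 mouse. In the second homozygous Cas9 mouse gLmna-2 was 2.76 times the gLmna-1 value, and in the first 0.937 times. The fitted difference between gLmna-2 and gLmna-1 was 0.68 in homozygous Cas9 cells (SE 0.32, limma adjusted p = 0.228) and, for the wild-type ones, 0.65 (adjusted p = 0.654). The heterozygous mice had 0.708 and 1.02 times. All 8 parts of the transcript with at least 20 reads were higher with gLmna-2 than with gLmna-1 in the second homozygous Cas9 mouse, by at least 1.36 on the log2 scale, while 4 of 7 such parts were lower in the first.

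Serpine2 (NM_009255, chr1:79794321-79858665, - strand), the inhibitor, was the most abundant member, at rank 50 of all symbols by mean level, with values from 355 to 1004 FPKM. Serpine2 had 544 and 1004 FPKM with gLmna-2, 513 and 912 FPKM with gLmna-1, and 526 and 1002.5 FPKM with gMock in homozygous Cas9 cells. Serpine2 values in heterozygous cells were 697 and 467 FPKM with gLmna-2, 679.5 and 445 FPKM with gLmna-1, and 719 and 508.5 FPKM with gMock. Serpine2 measured 438 and 437 FPKM with gLmna-2, 355 and 368 FPKM with gLmna-1, and 444 and 406 FPKM with gMock in wild-type Cas9 cells. The homozygous Cas9 mice stood further apart than any 2 treatments of 1 mouse, with a mean of 973 FPKM in the second and 528 FPKM in the first. The wild-type Cas9 mice had means of 412 and 404 FPKM, and the heterozygous mice 698 and 473 FPKM. Every homozygous Cas9 library and every heterozygous library lay above every wild-type Cas9 library. Within mice the gLmna-1 library was below gMock in 6 of 6 mice (4.84% of tested genes) and below gLmna-2 in 6 of 6 (3.21%). The gLmna-2 value was 1.03 to 1.24 times the gLmna-1 value. The largest step was in wild-type Cas9 cells, where gLmna-2 minus gLmna-1 was 0.28 (SE 0.08, limma adjusted p = 0.443).

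**Figure D2:**
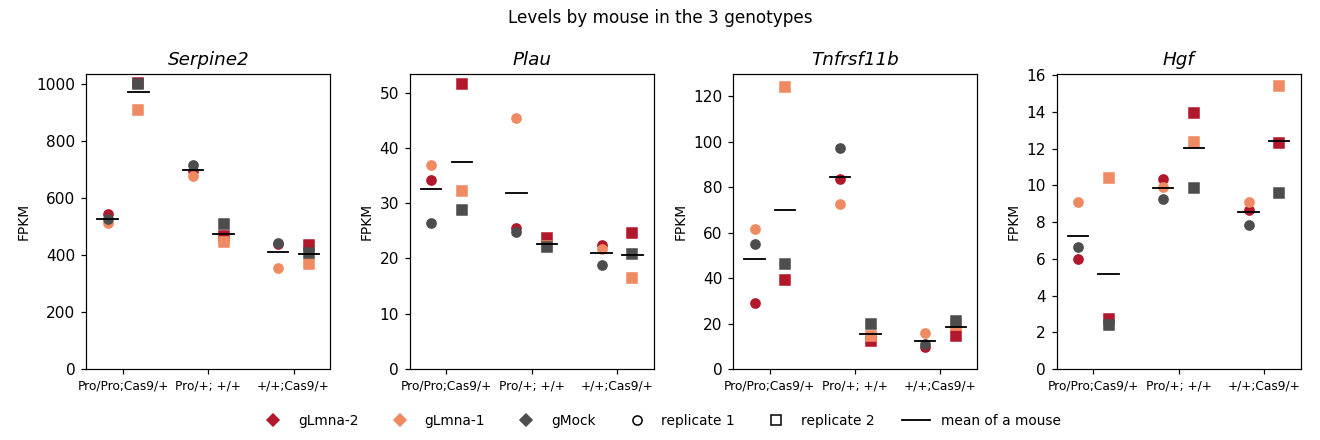
FPKM on linear axes from 0 for Serpine2, Plau, Tnfrsf11b and Hgf in the 3 genotypes, with 1 column of points for each mouse, colours for the treatments and a line at the mean of the mouse. Homozygous Cas9 mice lie above wild-type Cas9 mice in the first 3 genes, and 1 of the heterozygous mice has a Tnfrsf11b mean of 84.6 FPKM against 15.6 FPKM in the other.

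Il6 (NM_001314054, chr5:30013114-30019975, + strand), the cytokine for which the secretory programme is best known, was the least abundant member, with 12 to 122 reads per library. Il6 had 0.948 and 3.19 FPKM with gLmna-2, 4.37 and 3.72 FPKM with gLmna-1, and 0.698 and 3.57 FPKM with gMock in homozygous Cas9 cells. Il6 values in heterozygous cells were 2.09 and 1.65 FPKM with gLmna-2, 3.62 and 1.03 FPKM with gLmna-1, and 2.05 and 2.23 FPKM with gMock. Il6 measured 2.03 and 1.78 FPKM with gLmna-2, 0.384 and 0.394 FPKM with gLmna-1, and 3.52 and 0.601 FPKM with gMock in wild-type Cas9 cells. The 2 lowest values were those of wild-type Cas9 cells with gLmna-1, at 0.384 and 0.394 FPKM. The 2 highest were those of homozygous Cas9 cells with gLmna-1, narrowly, at 3.72 FPKM against 3.62 FPKM in a heterozygous library. The share of tested genes with such an order was not counted. Against gMock, gLmna-1 was higher in both homozygous Cas9 mice, by 1.66 and 0.05, and lower in both wild-type Cas9 mice, by -1.71 and -0.20. The fitted value was 0.85 in homozygous Cas9 cells (SE 0.46, limma adjusted p = 0.381). For gLmna-2 minus gLmna-1, homozygous minus wild-type Cas9 cells gave -1.88 (SE 0.65, limma adjusted p = 0.346), which did not pass. The gMock libraries of the 2 mice stood far apart in both of these genotypes.

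Lif (NM_008501, chr11:4257568-4272514, + strand), another ligand of gp130, ranged from 2.74 to 26.0 FPKM with a median of 6.31 FPKM. Lif had 6.12 and 26.0 FPKM with gLmna-2, 6.51 and 3.94 FPKM with gLmna-1, and 4.02 and 13.5 FPKM with gMock in homozygous Cas9 cells. Lif values in heterozygous cells were 6.58 and 5.65 FPKM with gLmna-2, 7.68 and 2.74 FPKM with gLmna-1, and 4.05 and 5.36 FPKM with gMock. Lif measured 16.4 and 6.68 FPKM with gLmna-2, 5.11 and 3.37 FPKM with gLmna-1, and 14.2 and 6.76 FPKM with gMock in wild-type Cas9 cells. Its lowest library in a mouse was gLmna-1 in the second homozygous Cas9 mouse, in both wild-type Cas9 mice and in the second heterozygous mouse. It was the highest of the mouse in the first homozygous Cas9 mouse and the first heterozygous mouse. The widest gap was in the second homozygous Cas9 mouse, where gLmna-2 was 6.58 times gLmna-1. The other homozygous Cas9 mouse had 0.939 times, and the fitted difference was 1.18 (SE 0.54, limma adjusted p = 0.208). The last part of the transcript held 80.8% of its reads.

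Hgf (NM_001289461, chr5:16553901-16619439, + strand), the MET ligand, ranged from 2.41 to 15.4 FPKM with a median of 9.42 FPKM. Hgf had 5.96 and 2.73 FPKM with gLmna-2, 9.11 and 10.4 FPKM with gLmna-1, and 6.67 and 2.41 FPKM with gMock in homozygous Cas9 cells. Hgf values in heterozygous cells were 10.3 and 14.0 FPKM with gLmna-2, 9.93 and 12.4 FPKM with gLmna-1, and 9.25 and 9.83 FPKM with gMock. Hgf measured 8.68 and 12.3 FPKM with gLmna-2, 9.07 and 15.4 FPKM with gLmna-1, and 7.81 and 9.59 FPKM with gMock in wild-type Cas9 cells. The 3 lowest libraries were gMock and gLmna-2 of the second homozygous Cas9 mouse and gLmna-2 of the first. In homozygous Cas9 cells both gLmna-2 libraries lay below both gLmna-1 libraries, at 0.655 and 0.262 times within the mouse. Lower within both of these mice were 19.7% of tested genes. The fitted difference was -1.08 on the log2 scale (SE 0.26, limma adjusted p = 0.034). In wild-type Cas9 cells it was -0.18 and in heterozygous cells 0.11, and neither passed. Against gMock, gLmna-1 differed by 1.07 in homozygous Cas9 cells (SE 0.26, adjusted p = 0.0853) and gLmna-2 by -0.01. The gLmna-1 libraries enter both of these comparisons. As for Plat, gLmna-1 was above gMock in all 6 mice.

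Vegfa (NM_001287058, chr17:46016994-46032377, - strand), the vessel growth factor, varied least between groups, with group means within 1.75 times, and lay between 23.6 and 64.8 FPKM with a median of 39.1 FPKM. Vegfa had 36.02 and 64.8 FPKM with gLmna-2, 39.1 and 33.6 FPKM with gLmna-1, and 39.1 and 52.6 FPKM with gMock in homozygous Cas9 cells. Vegfa values in heterozygous cells were 37.0 and 41.7 FPKM with gLmna-2, 49.1 and 43.9 FPKM with gLmna-1, and 34.9 and 45.9 FPKM with gMock. Vegfa measured 58.4 and 24.8 FPKM with gLmna-2, 34.2 and 23.6 FPKM with gLmna-1, and 59.5 and 29.2 FPKM with gMock in wild-type Cas9 cells. The highest libraries were gLmna-2 of the second homozygous Cas9 mouse and gLmna-2 and gMock of the first wild-type Cas9 mouse. In both of these mice gLmna-1 was lower than the other treatments, at 33.6 and 34.2 FPKM, and in the first homozygous Cas9 mouse the 3 values lay within 36.02 to 39.1 FPKM. None of the fitted differences passed, and gLmna-2 minus gLmna-1 was 0.41 in homozygous Cas9 cells (SE 0.23, limma adjusted p = 0.325) and likewise 0.41 in the wild-type ones (adjusted p = 0.726). All 8 neighbours in the order of group means overlapped. Vegfa forms that bind heparin keep exon 7, and the longest keep exon 6 also. The transcript used here has neither exon, and its parts also hold the reads of forms that share them. Its place as the highest by mean does not show that it is the main form. Exon 7 stood at 0.491 to 0.63 times the level of the shared exon 3 and exon 6 at 0.0598 to 0.284 times, with 6 to 41 exon 6 reads a library. The group means of the exon 7 ratio spanned 0.529 to 0.589.

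Tnfrsf11b (NM_008764, chr15:54250619-54278484, - strand), osteoprotegerin, had the widest range between libraries, 12.7 times, from 9.79 to 124 FPKM. Tnfrsf11b had 29.1 and 39.4 FPKM with gLmna-2, 61.9 and 124 FPKM with gLmna-1, and 54.9 and 46.1 FPKM with gMock in homozygous Cas9 cells. Tnfrsf11b values in heterozygous cells were 83.8 and 12.5 FPKM with gLmna-2, 72.7 and 14.3 FPKM with gLmna-1, and 97.4 and 19.9 FPKM with gMock. Tnfrsf11b measured 9.79 and 14.6 FPKM with gLmna-2, 15.6 and 19.3 FPKM with gLmna-1, and 10.98 and 21.2 FPKM with gMock in wild-type Cas9 cells. All homozygous Cas9 libraries lay above all wild-type Cas9 libraries, and the heterozygous mice fell on either side, with means of 84.6 and 15.6 FPKM. In homozygous Cas9 cells both gLmna-2 libraries lay below both gLmna-1 libraries, at 0.471 and 0.317 times within the mouse. Lower within both of these mice were 19.7% of tested genes and 4 of the 9 members. The fitted difference was -1.35 (SE 0.25, limma adjusted p = 0.0131). Both wild-type Cas9 mice had the same direction, with 0.626 and 0.755 times and a fitted -0.50 (SE 0.25, adjusted p = 0.655). Against gMock, gLmna-2 was lower in 6 of 6 mice (7.31% of tested genes), heterozygous mice included, with -0.56 in homozygous Cas9 cells (SE 0.25, adjusted p = 0.495). Against gMock, gLmna-1 differed by 0.79 there (SE 0.25, limma adjusted p = 0.153). Without gLmna-1 of replicate 2 that value was 0.34 (adjusted p = 0.436), and for Hgf 0.47 (adjusted p = 0.143).

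**Figure D3:**
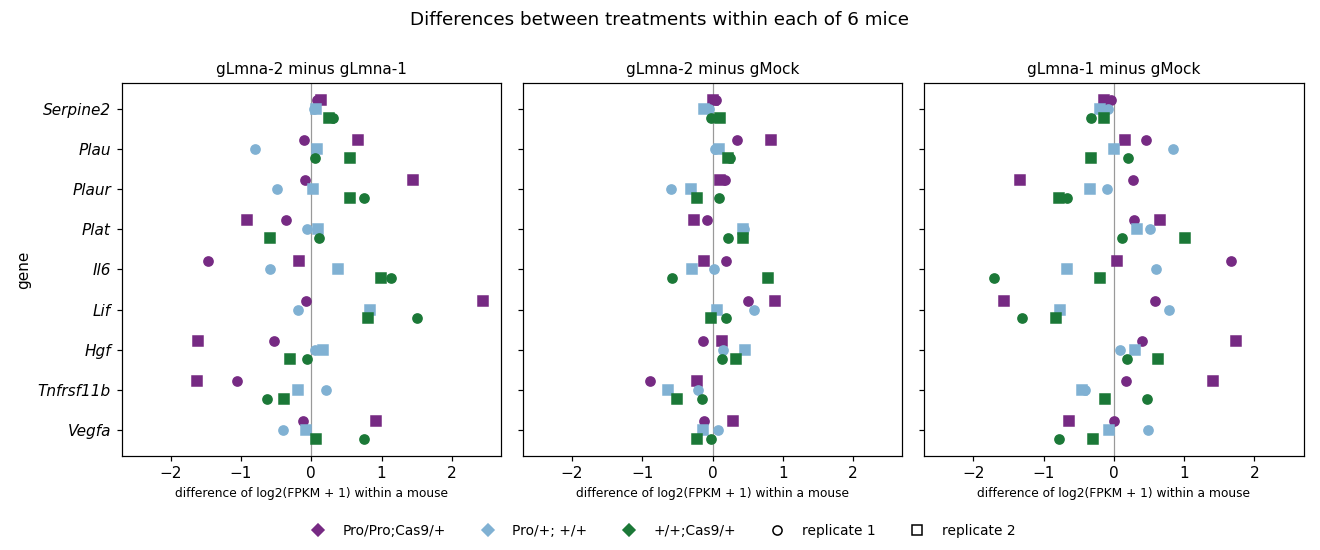
Difference of log2(FPKM + 1) between treatments within each of the 6 mice, for each gene, with colours for the genotypes and circles and squares for replicates 1 and 2. In the panel of gLmna-2 minus gLmna-1, Hgf and Tnfrsf11b are below 0 in all 4 Cas9 mice and Serpine2 is above 0 in all 6 mice, and the second homozygous Cas9 mouse has the widest differences for Plaur, Lif, Hgf and Tnfrsf11b.

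The comparison of gLmna-2 with gLmna-1 in homozygous Cas9 cells asks whether the guides left different expression. Of 12599 tested genes 1253 were called in it at an adjusted p under 0.05 (9.95%), 6.92% higher and 3.02% lower. Of the 9 members 2 were called, both lower, and 5 of 9 had a positive difference, with a median of 0.11 against 0.06 over all tested genes. Both differences ran along the transcripts. All 6 Tnfrsf11b parts with at least 20 reads were lower with gLmna-2 in both mice, with medians of -1.08 and -1.65. For Hgf 15 of 19 parts were lower in the first mouse and 19 of 19 in the second, with medians of -0.62 and -1.97. Both members were lower with gLmna-2 than with gLmna-1 in all 4 mice with Cas9, as were 8.23% of tested genes. Whether the difference is particular to homozygous Cas9 cells was tested directly and did not pass. Homozygous minus heterozygous cells gave -1.36 for Tnfrsf11b (SE 0.35, limma adjusted p = 0.081) and -1.18 for Hgf (SE 0.37, adjusted p = 0.13). Homozygous minus wild-type Cas9 cells gave -0.84 (adjusted p = 0.464) for Tnfrsf11b and -0.90 (adjusted p = 0.459) for Hgf.

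**Figure D4:**
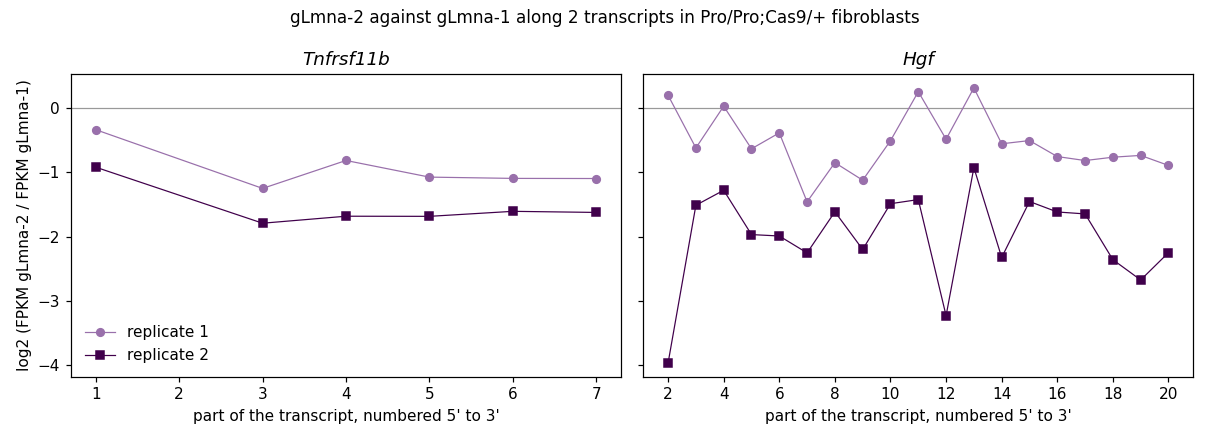
Log2 ratio of gLmna-2 to gLmna-1 for each transcript part of Tnfrsf11b and Hgf with at least 20 reads, numbered from the 5' end, in the 2 homozygous Cas9 mice. Both lines of Tnfrsf11b lie below 0 at all 6 parts, and the second mouse lies below the first at every part of both genes.

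These calls rest on few libraries. Without gLmna-1 of replicate 2, Hgf was at -0.47 (limma adjusted p = 0.1) and Tnfrsf11b at -0.89 (adjusted p = 0.0537). Without gLmna-2 of replicate 1 they were at -1.28 (adjusted p = 0.111) and -1.32 (adjusted p = 0.101), and without gLmna-2 of replicate 2 at -0.87 (adjusted p = 0.211) and -1.37 (adjusted p = 0.0825), so neither was called. Without gLmna-1 of replicate 1, 6 members were called: Plaur at 1.46, Lif at 2.35 and Vegfa at 0.82 were higher, and Plat at -0.87, Hgf at -1.68 and Tnfrsf11b at -1.80 were lower, with adjusted p from 0.00055 to 0.04. Each such fit leaves 1 library in an arm, which is assumed to vary like the other groups. Over all 11 alternatives the adjusted p lay between 0.00055 and 0.284 for Hgf and between 0.00194 and 0.512 for Tnfrsf11b.

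Some markers of other cells also differed in this comparison. The 11 macrophage markers, each above 1 FPKM somewhere, summed to 1675 and 859 FPKM with gLmna-2 and 515 and 1285 FPKM with gLmna-1. The 7 cartilage and bone markers, none at 0 throughout and Bglap below 1 FPKM in every library, summed to 25.8 and 244 FPKM with gLmna-2 and 163 and 427 FPKM with gLmna-1, lower in both mice as Tnfrsf11b was. Of the 5 tested, 2 were called, both lower. These were Col2a1, a cartilage collagen (-2.31, limma adjusted p = 0.0308), and Ibsp, a bone matrix protein (-1.23, adjusted p = 0.0324). By direction alone, 3 of the 5 were negative and 2 positive, with a median of -0.07. None of the 11 macrophage markers passed. Over all libraries the cartilage and bone sum ran from 17.4 to 435 FPKM. Muscle markers summed to 34.7 and 41.9 FPKM with gLmna-2 and 13.7 and 8.69 FPKM with gLmna-1. Of the 6, 4 were below 1 FPKM in every library: Myod1, Myog, Ckm and Myf5, which was at 0 throughout. The 2 tested, Des (0.86) and Acta1 (1.70), were called higher. Endothelial markers summed to at most 2.87 FPKM and keratinocyte markers, with Krt1 at 0 throughout, to at most 14.3 FPKM in any library. Of the 8 keratinocyte markers 5 were below 1 FPKM in every library. Of the 3 tested, Dsp (1.54) was called higher and Trp63 (-0.60) lower. Pigment and Schwann cell markers summed to 18.9 and 45.1 FPKM with gLmna-2 and 12.6 and 26.8 FPKM with gLmna-1. Of the 6 tested, 0 were called, with 5 positive and 1 negative. The part of these cells in the differences was not tested, and in bulk RNA fewer cells of a type and less RNA per cell cannot be told apart.

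For the guides against gMock, which ask what the Lmna guides changed, 0 of 9 members were called by limma in any genotype. In homozygous Cas9 cells 0.0794% of genes were called for the mean of the guides, 0.976% for gLmna-1 alone and 0.357% for gLmna-2 alone. Of the genes called for gLmna-2, 0.00794% of those tested were lower. The share was 0% in heterozygous cells and 0.849% in wild-type Cas9 cells, with 0.0238% higher. At an unadjusted p under 0.05 stood 1 member in each genotype for the mean of the guides, beside 8.37% of genes in homozygous Cas9, 3.15% in heterozygous and 7.61% in wild-type Cas9 cells. For gLmna-2 alone in homozygous Cas9 cells 2 members did so, beside 10.1% of genes, and for gLmna-1 alone 3, beside 18% of genes. With voom on recovered reads 0 members were called in each. The smallest p was that of Hgf with gLmna-1 and of Plau with gLmna-2, both given above. Between gLmna-2 and gLmna-1, limma called 0 members and 0% of genes in heterozygous cells, and 0 members and 0% of genes in wild-type Cas9 cells, where 266 and 1009 genes, and 0 and 2 members, had an unadjusted p under 0.05. The direct tests of a guide effect between genotypes called 0 members as well. Genes called there were 0% for homozygous Cas9 minus heterozygous cells, 0.294% for wild-type Cas9 minus heterozygous cells and 0.0476% for homozygous minus wild-type Cas9 cells, with 0 members at an unadjusted p under 0.05 in each. The tests of gLmna-2 against gLmna-1 between genotypes called 0 members, with 2.38% of genes against heterozygous cells (1.67% higher) and 0.0476% against wild-type Cas9 cells (0.00794% higher and 0.0397% lower), and 3 members at an unadjusted p under 0.05 in each, beside 17.9% of genes against heterozygous and 9.92% against wild-type Cas9 cells.

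The gMock libraries also served to compare genotypes. Of the members 0 were called by limma in homozygous against wild-type Cas9 cells, where 0.397% of genes were (0.00794% higher and 0.389% lower), and 0 in heterozygous against wild-type Cas9 cells, where 0.413% were (0.0317% higher). At an unadjusted p under 0.05 there were 2 members in homozygous against wild-type Cas9 cells, beside 10.4% of genes, and 0 in heterozygous against wild-type Cas9 cells, beside 12.5%, and voom called 0. Plau had the smallest p, with 26.5 and 28.7 FPKM in homozygous Cas9 cells against 18.7 and 20.9 FPKM in wild-type Cas9 cells (0.46, SE 0.12, adjusted p = 0.233). Tnfrsf11b differed by 1.66 (SE 0.71, adjusted p = 0.526) and Serpine2 by 0.77 (SE 0.34, adjusted p = 0.55). Hgf, at 6.67 and 2.41 FPKM in homozygous Cas9 cells against 7.81 and 9.59 FPKM in wild-type Cas9 cells, differed by -0.92 (SE 0.37, adjusted p = 0.475). Under gMock every homozygous Cas9 library was above every wild-type Cas9 library for Serpine2, Plau and Tnfrsf11b, as for 16.2% of tested genes, and below for Hgf, as for 18.5%. With all treatments, 3 of 9 members had every homozygous Cas9 library above every wild-type Cas9 library, as had 3.09% of tested genes, and 0 had every one below, as had 3.6%. Libraries of 1 mouse are not independent, so this rests on 2 mice against 2. The macrophage marker sum had the same order, with 515 to 1675 FPKM in homozygous Cas9 libraries and 76.0 to 455 FPKM in wild-type Cas9 libraries, and its part in these differences was not tested. Heterozygous libraries were all above wild-type Cas9 libraries for 1 member, Serpine2, as for 5.76% of genes. Under gMock this held for Serpine2, Plau and Plat, as for 22.6%. Every heterozygous library lay below every wild-type Cas9 library for 0 members with all treatments, beside 10.1% of genes. Under gMock it did so for Plaur and Lif, as for 27.9%.

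With each mouse's mean removed, some members moved together and some oppositely across the 18 libraries. Pearson's r of log2(FPKM + 1) was 0.868 for Lif and Vegfa, 0.83 for Plaur and Lif and 0.82 for Plaur and Vegfa. It was 0.816 for Plat and Hgf and 0.673 for Hgf and Tnfrsf11b, but 0.352 for Plat and Tnfrsf11b. Plaur and Hgf stood at -0.828 and Lif and Tnfrsf11b at -0.717. Il6 and Plau were tied less to the others, with highest values of 0.524 (Il6 with Serpine2) and 0.521 (Plau with Lif). Il6 and Hgf stood at 0.093 and Plau and Hgf at -0.124. The share of all gene pairs with such values was not counted. The libraries share 6 mice, and each value of a pair comes from the same library, so these are descriptions. The second homozygous Cas9 mouse has the widest swings for Plaur, Lif, Hgf and Tnfrsf11b and weighs most.

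Without that adjustment, the genes whose log2 levels were most like a member's over the 18 libraries, among 10174 compared, were Fap (0.936) and Ehd3 (0.922) for Serpine2. They were Hoxa11 (0.868) and Nsmce3 (0.809) for Plau, Ubap1 (0.97) and Ccn2 (0.961) for Plaur, and Slc9a9 (0.928) and Tgfbr2 (0.91) for Plat. For the cytokines they were Klhdc2 (0.911) and Pex16 (0.873) for Il6, Tgif1 (0.958) and Uvrag (0.937) for Lif, and Hk2 (0.899) and Ciart (0.882) for Vegfa. For Hgf they were Ggt7 (0.932) and Arsj (0.931), and for Tnfrsf11b Lctl (0.963) and Hapln1 (0.954).

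Genes of these pathways were counted in the comparison of gLmna-2 with gLmna-1 in homozygous Cas9 cells, where 9.95% of all tested genes were called. The pathway lists include the members that belong to them. Of 13 tested genes of the plasminogen system 1 was higher and 0 were lower, with a median of 0.01 against 0.06 over all genes. It was Serpinb2, an inhibitor of urokinase, at 0.943 and 21.1 FPKM with gLmna-2 and 0.0424 and 0.134 FPKM with gLmna-1 (2.59, SE 0.62, limma adjusted p = 0.0326). Plg, which encodes plasminogen itself, was at most 0.0306 FPKM in any library. Of 20 tested genes of the IL-6 family and its signalling, 2 were higher and 1 was lower, with a median of -0.05. Il11, a cytokine of the same family, was at 7.999 and 13.0 FPKM with gLmna-2 and 2.81 and 2.50 FPKM with gLmna-1 (1.62, adjusted p = 0.00898). Il6st, which encodes gp130, was at 152 and 75.2 FPKM with gLmna-2 and 279 and 265 FPKM with gLmna-1 (-1.34, adjusted p = 0.0116), and Jak2, a kinase bound to gp130, was at 0.37 (adjusted p = 0.0446).

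The same comparison, with 9.95% of all tested genes called, was made for lists around the growth factors and the decoy receptor. Of 5 tested genes of the HGF and MET list 1 was lower, Hgf, while its receptor Met was at 1.76 to 5.16 FPKM over all libraries. Of 4 tested genes of the RANK ligand list 2 were lower, Tnfrsf11b and Tnfsf11, which encodes RANK ligand, with 3.74 and 1.11 FPKM with gLmna-2 and 6.92 and 4.64 FPKM with gLmna-1 (-1.08, SE 0.27, limma adjusted p = 0.0401). The receptor Tnfrsf11a was at most 1.04 FPKM. Of 8 tested genes of the VEGF family 1 was higher, Pgf, the placental growth factor (0.60, adjusted p = 0.0405), and the receptors Kdr and Flt1 were under 1 FPKM in every library. Of 14 hypoxia targets 0 passed (median -0.34), and Adm had the smallest p (-1.03, adjusted p = 0.052). Of 28 other senescence secretory genes tested, 7 were higher and 6 lower, with a median of 0.29. The smallest p were those of Cxcl1, a neutrophil chemokine (-2.18), Fgf2, a fibroblast growth factor (2.34), and Mmp10, a matrix protease (2.65). Fgf2 was at 10.95 and 24.0 FPKM with gLmna-2, 1.87 and 3.04 FPKM with gLmna-1, and 2.92 and 19.2 FPKM with gMock, so the second gMock library lay with gLmna-2.

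Of the pathway and marker genes outside the members, 29 were called between gLmna-2 and gLmna-1 in homozygous Cas9 cells. With 1 library left out, all 29 kept their direction. Without gLmna-1 of replicate 1, 26 of them were called, and without gLmna-1 of replicate 2, 14 were. Without gLmna-2 of replicate 1, 2 were called, and without gLmna-2 of replicate 2, 4 were. Serpinb2 was at 3.995 without gLmna-1 of replicate 1 (limma adjusted p = 0.000823) and at 1.19 without gLmna-1 of replicate 2 (adjusted p = 0.114). Without gLmna-1 of replicate 2, Jak2 at 0.23, Pgf at 0.35 and Tnfsf11 at -0.87 were not called, with adjusted p from 0.153 to 0.178, while Il11 at 1.14, Il6st at -0.80, Cxcl1 at -2.16, Fgf2 at 1.73 and Mmp10 at 1.85 were. Col2a1 at -1.49 and Ibsp at -1.32 were not called without gLmna-1 of replicate 1 (adjusted p = 0.128 and 0.0504).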

How the data were processed

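Total RNA of 18 fibroblast cultures was sequenced. Per the submitters' processing notes, the authors used FastQC 0.11.2, STAR 2.4.0k, HOMER and the mm10 build. The deposited table, per its header, holds FPKM values, a length and coordinates for 404759 transcript parts in the columns of these 18 libraries. The 2531 parts of no positive length were left out. Another 6 library columns match no sample here and were not used.

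From the deposited FPKM, whole reads were recovered in every library (100% of the low values tested were whole within 0.05) and parts were summed by length to 36795 transcripts, 36474 of them named from RefSeq. For each symbol the transcript with the highest mean was kept. The 12599 genes that reached 1 FPKM in 2 or more libraries were fitted on log2(FPKM + 1) with limma 3.58.1 in R 4.3.3 (trended variance, Benjamini-Hochberg adjustment over all genes), with the mouse as a block. The mouse supplied all 3 treatments, so libraries are paired by design. Deviations from group means correlated from -0.019 to 0.778 between treatments of a mouse. The fit left 6 residual degrees of freedom. Genotypes were compared in the 6 gMock libraries, with 3. Fold changes on this scale understate the change of low genes. All 9 members were named in full, from each pathway list up to 3 genes past the threshold by smallest p, or 1 where none passed, and for each member the 2 genes with the highest Pearson's r. Members and lists were chosen with earlier results of these data known. The scripts were tested on simulated data. Alternatives were a pseudocount of 0.1, no filter, median-ratio scaling, the longest transcript of each gene, a library-name suffix as a block, voom on recovered reads, no block, a fit of the compared genotypes alone, and each library left out. Figures were drawn with Python 3.11.15 and matplotlib 3.10.9. Counting intervals and limits cover counting error only.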

Additional observations from a re-analysis of the deposited data

Results flagged for a closer look

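In 8 of 63 cases looked at, 9 genes in 7 pairs of genotypes and contrasts, both mice of a genotype moved one way and both mice of another the opposite way, on the log2(FPKM + 1) scale, and the difference between the genotypes was not tested for these contrasts. The same pattern was found in 13.2% of such cases over all tested genes, so the count is near that background. For gLmna-1 against gMock, Il6 was higher in both homozygous Cas9 mice and lower in both wild-type Cas9 mice, and the mean differences stood 1.81 apart. Tnfrsf11b was higher in both homozygous Cas9 mice and lower in both heterozygous mice, 1.22 apart. For gLmna-2 against gMock, Plat was lower in both homozygous Cas9 mice, by -0.08 and -0.26. It was higher in both heterozygous mice, which gave homozygous minus heterozygous -0.61, and in both wild-type Cas9 mice, which gave homozygous minus wild-type -0.50. Plaur was higher in homozygous Cas9 and lower in heterozygous mice, 0.59 apart. Serpine2 had the same signs, 0.11 apart, but was almost unchanged in the homozygous Cas9 mice, at 0.0504 and 0.0018. In the heterozygous mice it was at -0.0433 and -0.1241. For gLmna-2 against gLmna-1, heterozygous minus wild-type Cas9 cells gave 0.29 for Hgf, higher in both heterozygous mice, and -0.65 for Vegfa, lower in both heterozygous mice.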

How the results depend on the processing

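Of 224 results recomputed under another setting, apart from those that leave out a library, 47 moved a count or lost a call. Of these 224, 210 are counts, which have no direction, and the other 14 are values of Hgf and Tnfrsf11b, none of which turned direction. The 2 member calls between gLmna-2 and gLmna-1 in homozygous Cas9 cells became 1 without a filter, 1 with voom on recovered reads, 0 with no replicate block and 0 in a fit of the homozygous libraries alone. Without the pairing by mouse, Hgf had an adjusted p of 0.20 and Tnfrsf11b of 0.51. Leaving out 1 library gave 0 to 6 member calls in that comparison, 0 to 1 for the guides against gMock, 0 to 4 for gLmna-1 against gMock, 0 to 5 for the difference from heterozygous cells and 0 to 1 for the difference from wild-type Cas9 cells. In gLmna-1 against gMock the 4 came without gLmna-1 of replicate 1, where Plaur was at -1.32, Lif at -1.65, Hgf at 1.68 and Tnfrsf11b at 1.24. The causes were not tested. Over all genes, the 1253 calls became 1332 with voom, 59 with no replicate block, 0 in the homozygous libraries alone and 140 to 2629 with 1 library left out. The 123 calls of gLmna-1 against gMock became 6 without a filter, 0 with no replicate block, 0 in the homozygous libraries alone and 0 to 1773 with a library left out. The 45 of gLmna-2 against gMock became 19, 0, 0 and 0 to 11 under the same settings, and the 10 of the mean of the guides 1, 0, 0 and 1 to 152. In wild-type Cas9 cells the 107 calls for the guides became 67 in those libraries alone and 0 to 84 with a library left out. In heterozygous cells the 0 calls between the guides became 3 without a filter. The 300 calls for the difference from heterozygous cells between gLmna-2 and gLmna-1 became 50 without a filter, 1 with no replicate block, 2 in the compared genotypes alone and 0 to 2056 with a library left out. The 6 for the difference from wild-type Cas9 cells became 0, 0, 0 and 0 to 548, and 10 with scaling. For the guide effect, the 37 calls of wild-type Cas9 minus heterozygous cells became 0 with a pseudocount of 0.1, 6 without a filter, 8 with scaling, 22 with voom, 10 with no replicate block and 66 in the compared genotypes alone. The 6 of homozygous minus wild-type Cas9 cells became 1 with scaling, 3 with no replicate block and 0 in the compared genotypes alone. Under gMock the 50 calls of homozygous against wild-type Cas9 cells became 2 without a filter, 32 with scaling, 31 with voom and 0 in the compared genotypes alone. The 52 of heterozygous against wild-type Cas9 cells became 15 without a filter and 176 in the compared genotypes alone. Both became 0 with the suffix block, whose suffix is another form of the replicate number. Median-ratio scaling moved no median of all genes by more than 0.1. Each genotype had 2 mice. With the mouse as a block, p-values of the guide comparisons measure how treatment differences varied between mice of a genotype, pooled over the 3 genotypes. Only p-values of the genotype comparisons under gMock measure the spread of levels between mice. Il6, at 12 to 122 reads, has the least depth.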
